A study of Homo sapiens with 18 samples.

Results

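The probe sets described here passed a set distance from the change of their own gene with PMA in 1 cell line of 3, while the mean of the gene stayed nearly level in every line. They were chosen by their measured values. A probe set had to carry exactly 1 gene symbol and a mean over the 18 arrays above 5.17 log2, the 30th percentile of all probe sets. Its gene had to hold at least 5 such probe sets, and the mean change of these, PMA minus DMSO, had to lie within 0.5 log2 of zero in HL60, THP-1 and U937. The change of the probe set minus the mean change of its gene is called the difference below. A probe set was kept when the difference was at least 1.5 log2 units, a 2.83-fold ratio, up or down in exactly 1 line. Of 287329 probe sets, 261273 had exactly 1 symbol, 60324 in 4579 genes could have been chosen, and 139 in 129 genes were. HL60 held 63 of them, THP-1 55 and U937 21.

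HL60, THP-1 and U937 are established human myeloid cell lines, HL60 of promyelocytic and the others of monocytic character. In each line, cells were given 30 nM PMA (phorbol 12-myristate 13-acetate) or only the vehicle DMSO, and were kept for 3 days. Total RNA was extracted with TRIzol and hybridised, as biotin-labelled cDNA, to Affymetrix human exon 1.0 ST arrays. Each of the 6 groups, HL60, THP-1 and U937 with DMSO and the same lines with PMA, has 3 numbered arrays. The labels do not say whether these came from separate cultures, so the p-values below measure only the spread between these samples, which may be technical. Each line is 1 culture system, and a difference between lines is one between these lines and not between leukaemia types. As RNA of all cells was pooled, fewer cells that use an exon and less use in each cell cannot be told apart.

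PMA activates protein kinase C, and myeloid leukaemia cells treated with it stop dividing, attach and take on features of macrophages. An exon array carries a small set of probes, the probe set, for most known exons, so that 1 gene is read at many places along its transcript. A probe set that moves while the others of its gene stay can come from an alternative exon, start or end of the transcript, but also from a nearby or similar transcript or from a probe set near its background. The sequence and position of the probe sets were not used here, and exons are therefore named by probe-set number.

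Array medians ran from 6.18 to 6.95 log2, and arrays of 1 group correlated at 0.931 to 0.978 over all probe sets. The lowest median was that of U937 PMA array 2, which also held 83228 distinct values against 214471 to 220516 on the other arrays. Of 12 markers of myeloid cells, 12 lay above 5.17 with DMSO in HL60 and in THP-1 and 11 in U937. Median levels of the markers of T and NK, B, erythroid, and epithelial or fibroblast cells were between 4.64 and 6.24 with DMSO, and 8.33 to 8.93 for the myeloid list. Some of these other markers also lay above 5.17 with DMSO. In each line they were 2 of 6 for T and NK, 2 of 3 for B and 1 of 3 for erythroid cells. For epithelial or fibroblast cells 4 of 7 did in HL60 and U937 and 2 in THP-1. NKG7, of the T and NK list, was at 8.03 in HL60, 8.34 in THP-1 and 11.30 in U937.

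Most of the chosen probe sets were lower than their gene with PMA. In HL60 16 were higher and 47 lower, in THP-1 18 and 37, and in U937 5 and 16, or 39 higher and 100 lower in all. The 139 are 0.23% of the probe sets that could have been chosen, by line 0.104% for HL60, 0.0912% for THP-1 and 0.0348% for U937. Counting every eligible probe set past 1.5, whatever the other lines did, gave 0.0298% higher and 0.0961% lower in HL60, 0.0315% and 0.068% in THP-1, and 0.0116% and 0.0431% in U937. Another 12 eligible probe sets passed in a pair of lines and 2 in all 3. The median absolute difference was 1.69 in HL60, 1.69 in THP-1 and 1.77 in U937, and the largest were 2.74, 2.51 and 2.78. These values chose the probe sets and are given as a description, with no test.

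Past 1.5 in exactly 1 line did not mean unmoved in the others. In 88 of the 139, both other lines had a difference of the same sign, in 41 one had, and in 10 neither had. In 39 another line reached at least 1 in the same direction, and in 47 both other lines stayed under 0.5. By shifted line, these last were 18 of 63 in HL60, 21 of 55 in THP-1 and 8 of 21 in U937. CARD14 shows how thin the margin can be, with 1.63 in HL60 and 1.496 in U937, just under the threshold. The name line-specific thus describes the threshold, and the values of the other lines are given beside the leading probe sets below.

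**Figure D1:**
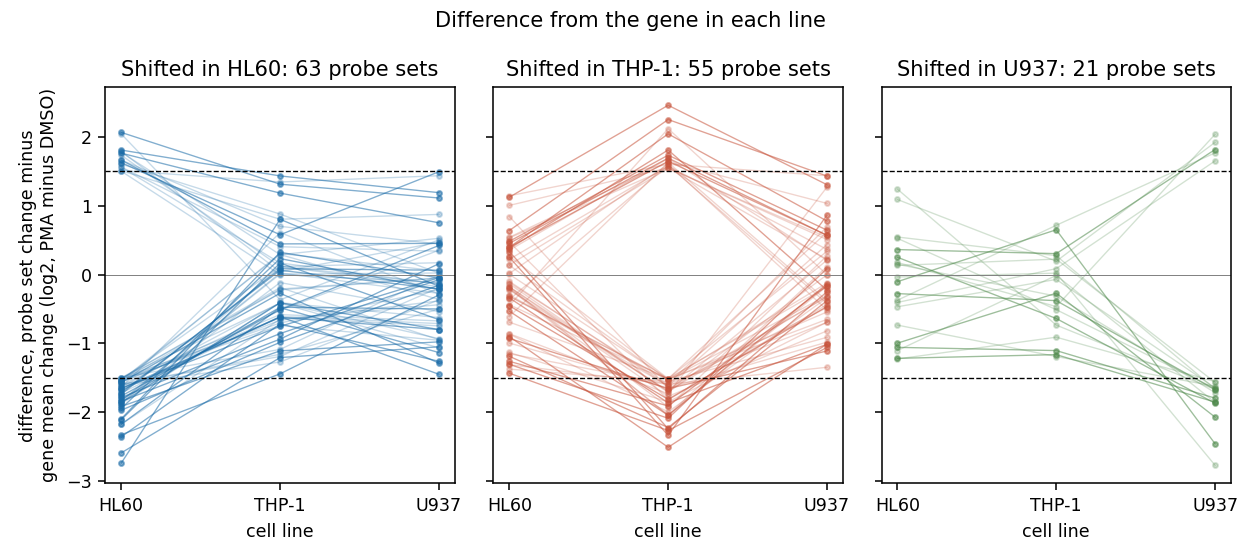
Difference from the gene (probe-set change minus gene mean change, log2, PMA minus DMSO; vertical axis) in HL60, THP-1 and U937 for the 63, 55 and 21 probe sets shifted in each line, 1 line of points per probe set. Dashed lines mark 1.5; darker points are the 51 whose arrays stood apart and whose difference held without each array of the line; in 88 of 139 both other lines lie on the same side of 0.

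The chosen probe sets had low signals in genes of ordinary level. Their median level over all arrays was 6.02 log2 against 7.25 for all eligible probe sets, while the median level of their genes was 7.05 against 7.25. The median probe set lay 0.91 below its gene (-0.91), and the eligible median was -0.07. Genes in the lowest quartile of gene level (below 6.69) held 45 of the 139, or 32.4%, and genes in the top quartile (above 8.01) held 17, or 12.2%. The 100 lower probe sets had a median level of 6.70 with DMSO and 4.89 with PMA in the shifted line, and 59 of them ended below 5.17. The 39 higher ones went from 5.52 to 7.29 in median, and 18 of them started below 5.17. Values under 5.17 are in the range that the rule left out on average, and the size of such differences is approximate. Probe sets differ in how brightly they read the same RNA, so a low signal is not by itself low use of an exon.

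Replicate spread was larger than usual for these probe sets. The median SD within a group of usage, the log2 value of the probe set minus its gene's mean on the same array, was 0.49 in the shifted line and 0.44 in the other lines, against 0.29 over all eligible probe sets. In usage, the 3 PMA arrays lay wholly beyond the 3 DMSO arrays in 117 of the 139: 55 of 63 in HL60, 48 of 55 in THP-1 and 14 of 21 in U937. Among all eligible probe sets this held for 14.8% in HL60, 13.4% in THP-1 and 10.3% in U937. Since large differences were chosen, the members had to be separated more often, and nothing is read from the gap. In 7 of the 139 the arrays were apart in opposite directions in a pair of lines, as in 1.19% of eligible probe sets, and here too the choice of large differences favours the members.

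Leaving out 1 array of the shifted line took many probe sets under 1.5. In 51, the arrays stood apart and the difference stayed at 1.5 or more without any single array of the line: 26 in HL60, 18 in THP-1 and 7 in U937. Leaving out exactly 1 particular array took 33 of the 139 under 1.5, for 54 there was more than 1 such array, and SCAND2P in U937 stayed past 1.5 with arrays that overlapped. HL60 PMA array 1 ended 20 of them, more than any other array, and THP-1 PMA array 1 ended 17. The 51 are called steady below. Repeating the whole choice with 17 arrays gave 143 to 341 probe sets: HL60 went from 63 to 233 without HL60 PMA array 1, THP-1 from 55 to 270 without THP-1 PMA array 3, and U937 from 21 to 136 without U937 DMSO array 3. Without both U937 arrays numbered 2, the count was 169, of which 116 were among the 139, and U937 had 44, of which 14 were shared.

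**Figure D2:**
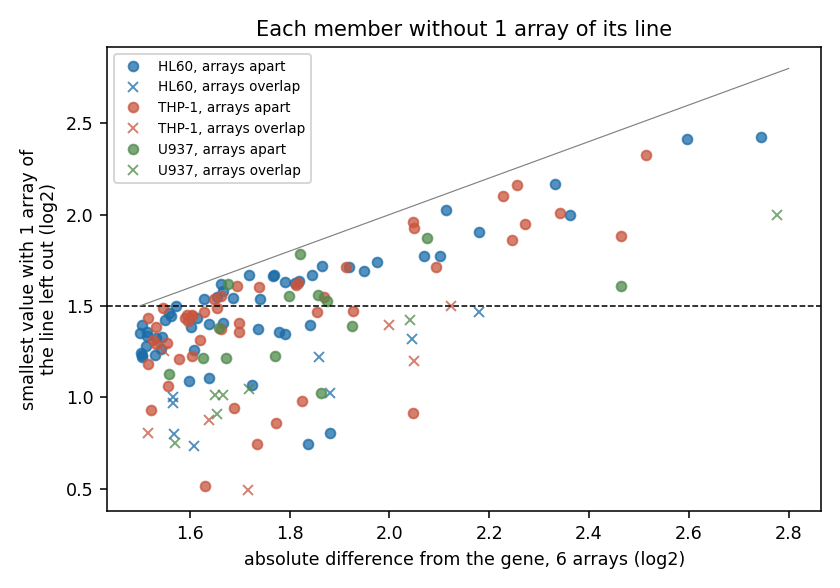
Absolute difference of each of the 139 probe sets over all 6 arrays of its line (horizontal axis, log2) against the smallest value when 1 array of the line is left out (vertical axis, log2). Circles have PMA arrays beyond the DMSO arrays in usage and crosses do not; circles above the dashed line at 1.5 are the 51 steady probe sets, and the grey line marks equality.

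Among probe sets lower in HL60, the largest difference was in FCN1, which encodes ficolin-1, a lectin of monocytes that binds microbial sugars and starts the lectin pathway of complement. Probe set 3229341 read 7.98, 7.56 and 5.92 log2 with DMSO in HL60 and 4.62, 3.87 and 3.81 with PMA. It read 3.56, 3.23 and 2.89, then 4.44, 4.30 and 4.40 in THP-1, and 10.53, 10.58 and 9.92, then 10.24, 9.94 and 9.65 in U937. The HL60 groups did not overlap, those of THP-1 were apart in the opposite direction, and those of U937 overlapped between 9.92 and 10.24. All THP-1 arrays and the HL60 arrays with PMA lay below 5.17, so the size of these differences is approximate. The difference from the gene was -2.74 ± 0.57 (SE, 3 arrays per group) in HL60, 0.80 in THP-1 and -0.17 in U937, and -2.42 to -3.24 in HL60 with 1 array left out. The mean of the 10 FCN1 probe sets changed by -0.31, 0.35 and -0.23 in the lines, in that order.

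STAG3, a cohesin subunit of meiosis, held 2 steady probe sets lower in HL60. Probe set 3015361 read 9.17, 9.82 and 9.14 with DMSO and 6.21, 6.59 and 7.01 with PMA in HL60, 8.56, 8.89 and 8.61 then 7.16, 7.34 and 7.55 in THP-1, and 9.61, 9.31 and 9.14 then 8.09, 8.19 and 7.95 in U937. In each line all PMA arrays were below all DMSO arrays. Differences were -2.60 ± 0.29 in HL60, -1.21 in THP-1 and -1.05 in U937. The other, 3015355, went from 9.96 ± 0.38 to 7.45 ± 0.07 in HL60 (mean ± SD, n = 3), with differences of -2.33 ± 0.27, -1.45 and -0.30. STAG3 thus differed between lines in the size of a change that at 3015361 had 1 direction in all.

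CEACAM3, a receptor with which granulocytes take up certain bacteria, read 9.45, 9.63 and 7.42 with DMSO and 6.47, 6.49 and 5.65 with PMA at probe set 3834414 in HL60. The groups did not overlap, although DMSO array 3 stood well below the other DMSO arrays. The difference was -2.36 ± 0.68. Differences in THP-1 and U937 were -0.72 and -1.26. DLEU7, named for its deletion in lymphocytic leukaemia, had little spread. Its probe set 3514292 read 8.76, 8.99 and 9.09 with DMSO and 6.75, 6.85 and 7.11 with PMA in HL60, -2.11 ± 0.11 from the gene. THP-1 stood at 6.76 ± 0.05 with DMSO and 7.25 ± 0.16 with PMA, so the PMA level of HL60 was close to that of THP-1 under either agent. In U937 the difference was -0.66.

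Among the other steady probe sets lower in HL60 were those of DOCK8, UBE4B, EIF4G3 and ZNF385D. DOCK8, an activator of the GTPase CDC42 in leukocytes, read 6.93, 6.57 and 6.23 and then 4.21, 4.79 and 4.93 at probe set 3159399, with differences of -1.98 ± 0.33 in HL60, -0.99 in THP-1 and -0.16 in U937. UBE4B, a ubiquitin chain assembly factor, read 8.74, 8.85 and 8.43 and then 7.11, 6.92 and 6.62 at 2319588. Its differences were -1.92 ± 0.25, -1.11 and -0.98, so that all 3 lines were on the same side. EIF4G3, a scaffold of translation initiation, went from 8.01 ± 0.33 to 6.63 ± 0.07 at 2400497 in HL60, with differences of -1.79 ± 0.21, -0.86 and -0.07. In these 3 genes the HL60 groups did not overlap. ZNF385D, a zinc finger protein, went from 7.92 ± 0.11 to 6.02 ± 0.28 at 2665738, -1.72 ± 0.10 from the gene, while THP-1 and U937 gave 0.06 and -0.21.

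Fewer probe sets were higher in HL60, and 5 of the 16 were steady. NR1I2, the pregnane X receptor that senses drugs and bile acids, read 5.43, 6.05 and 5.08 with DMSO and 8.05, 7.53 and 8.01 with PMA at 2638192. Differences were 2.07 ± 0.39 in HL60, 1.32 in THP-1 and 1.11 in U937, and in each line all PMA arrays were above all DMSO arrays. FRMD5, a FERM domain protein, read 6.70, 6.43 and 6.09 and then 8.43, 8.48 and 9.10 at 3621760 in HL60, with differences of 1.81 ± 0.25, 1.44 and 1.19. MYH7, the slow cardiac myosin heavy chain, went from 5.75 ± 0.22 to 7.89 ± 0.21 at 3557555, with differences of 1.77 ± 0.13, 1.19 and 0.75. All 3 thus had positive differences in every line and crossed 1.5 in HL60. NECAB3, a calcium-binding protein with EF hands, went from 3.98 ± 0.23, below 5.17, to 6.12 ± 0.31 at 3903098, the level of the other lines with PMA (6.02 ± 0.18 and 6.49 ± 0.83), and its difference was 1.67 ± 0.10 against 0.45 in both others. CARD14, an NF-kappaB scaffold best known from skin, read 5.07, 5.22 and 5.27 and then 7.22, 7.36 and 7.04 at 3737238, with differences of 1.63 ± 0.12, 0.58 and 1.496.

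In THP-1 the largest higher probe set lay in NAA38, a small subunit of the NatC enzyme that acetylates protein N termini. Probe set 3743969 read 7.51, 7.38 and 7.33 with DMSO and 10.25, 9.75 and 10.17 with PMA. HL60 went from 7.51 ± 0.27 to 8.93 ± 0.32 and U937 from 7.97 ± 0.19 to 8.81 ± 0.58, so that it was higher with PMA in each line and highest in THP-1. Differences were 2.46 ± 0.77, 1.13 and 1.31 in THP-1, HL60 and U937. The gene mean over 7 probe sets itself varied between arrays of a group, as the plot of levels shows, and the SE is wide. Between same-numbered THP-1 arrays usage changed by 2.42, 2.34 and 2.63, and the SE within these pairs was 0.09. The SE within pairs was not smaller throughout. It was 0.35 against 0.29 at STAG3 3015361 in HL60 and 0.48 against 0.34 at COL27A1 3185987 in U937. The labels do not say whether the numbers pair the arrays. CFAP410, a protein of cilia, read 8.27, 8.17 and 8.25 and then 10.55, 10.72 and 10.25 at 3934485, with little spread. Its differences were 2.26 ± 0.12 in THP-1, 0.64 in HL60 and 1.43 in U937.

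Another pair of higher probe sets in THP-1 belonged to genes best known from excitable cells. SCN4A, the sodium channel of skeletal muscle, read 3.51, 3.49 and 3.65 with DMSO, below 5.17, and 6.13, 6.08 and 5.91 with PMA at 3766592, or 2.05 ± 0.11, against 0.40 in HL60 and 0.78 in U937. With PMA the level in THP-1 was close to the 5.60 ± 0.32 of HL60 and the 5.98 ± 1.07 of U937, and what stood apart was its DMSO level. GNAL, a stimulatory G protein alpha subunit of olfactory and striatal neurons, read 6.12, 6.75 and 6.48 and then 8.69, 7.88 and 8.71 at 3779226, or 1.81 ± 0.29. Here the other lines had differences of 0.38 and -0.23, and what stood apart was the PMA level of THP-1.

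Probe sets lower in THP-1 were led by APBB2, an adaptor that binds the amyloid precursor protein. Probe set 2766903 read 5.63, 5.49 and 4.50 with DMSO and 1.95, 2.72 and 2.26 with PMA in THP-1, against 9.35, 8.79 and 9.39 then 8.45, 6.88 and 9.85 in U937. The THP-1 groups were apart, with all PMA arrays well below 5.17, and the U937 groups overlapped at higher levels. Its difference was -2.51 ± 0.33 in THP-1, -0.90 in HL60 and -1.01 in U937. SEPTIN4, a GTP-binding filament protein, read 6.56, 5.61 and 5.95 and then 3.37, 3.37 and 5.20 at 3764533. Its difference was -2.34 ± 0.57 in THP-1, 0.25 in HL60 and 0.86 in U937, where DMSO array 1 read 1.99 against 5.81 and 6.09. NLRC3, a cytosolic protein that dampens innate immune signalling, read 5.82, 5.41 and 6.43 and then 3.46, 2.71 and 4.50 at 3677686, with differences of -2.27 ± 0.56, -1.44 in HL60 and -1.06 in U937.

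Some of the lower probe sets in THP-1 were ones that THP-1 alone read brightly before PMA. COL8A2, a short-chain collagen, read 7.52, 7.73 and 8.05 with DMSO and 4.58, 5.27 and 6.05 with PMA at 2406582, while HL60 and U937 stayed between 3.95 and 5.29 under both agents. The PMA arrays of THP-1 thus reached the level of the other lines. Differences were -2.25 ± 0.44 in THP-1, 0.33 in HL60 and -0.25 in U937. RNF175, a RING finger protein, read 8.86, 9.32 and 8.77 and then 7.16, 7.01 and 5.75 at 2790333, and was at 5.08 ± 0.56 in HL60 and 4.75 ± 0.06 in U937 with DMSO. Here the PMA arrays of THP-1 stayed above the other lines, and differences were -2.09 ± 0.42, -1.31 in HL60 and 0.09 in U937. Its gene had 5 usable probe sets, the fewest allowed, so that each weighs heavily in the gene mean.

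**Figure D3:**
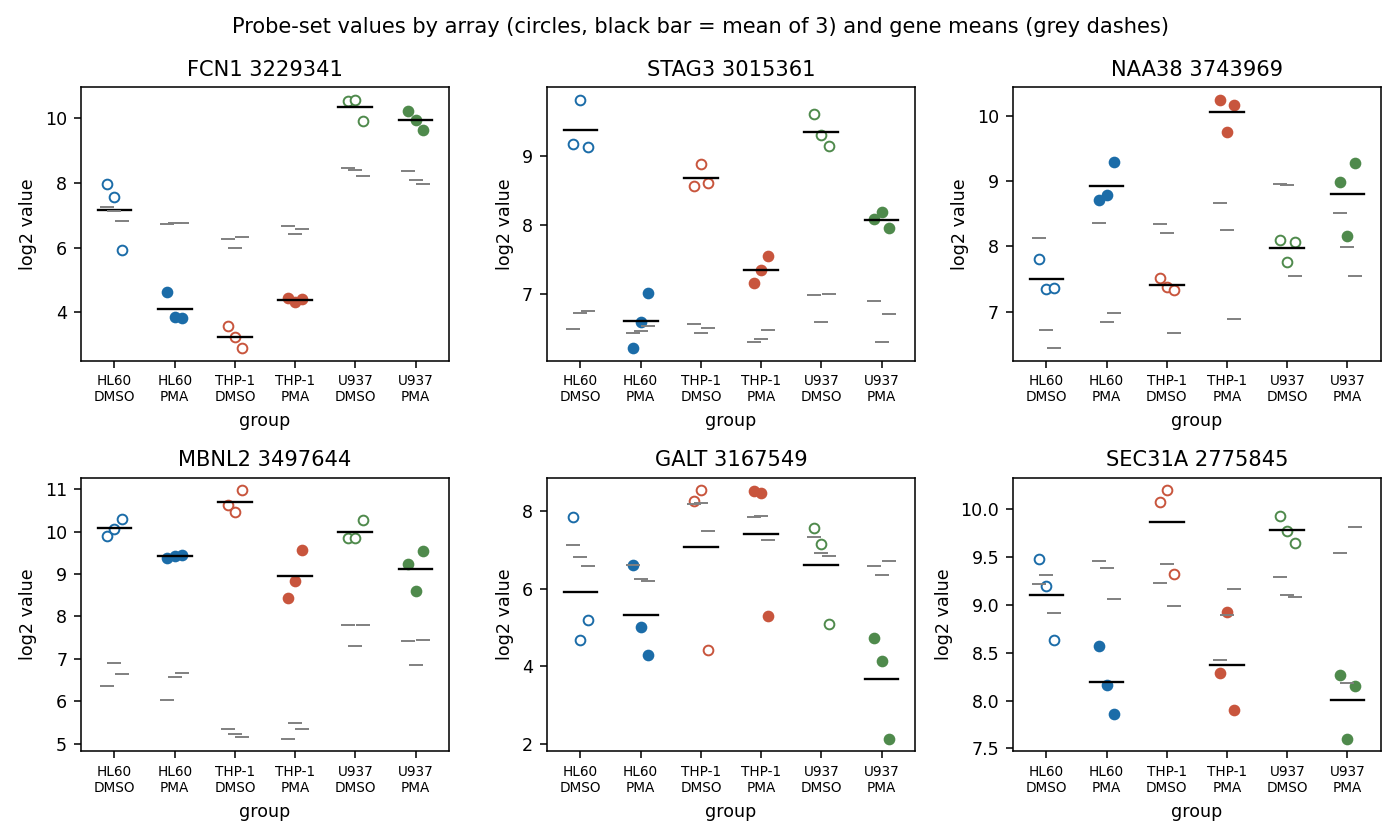
Log2 values by array of 6 probe sets (circles, 3 arrays per group, open for DMSO and filled for PMA; black bars are means) with the mean of their gene on the same array (grey dashes), for HL60, THP-1 and U937. FCN1 and STAG3 were chosen for HL60, NAA38 and MBNL2 for THP-1, GALT and SEC31A for U937; STAG3, NAA38, MBNL2 and SEC31A moved the same way in every line, and the arrays of GALT spread over several units within groups.

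U937 had the fewest probe sets, and 1 of its 5 higher ones was steady. This lay in NADK, the kinase that makes NADP from NAD. Probe set 2391741 read 7.15, 7.06 and 6.93 with DMSO and 9.11, 8.54 and 9.44 with PMA in U937, or 1.82 ± 0.07. It stood at 6.98 ± 0.30 and 7.05 ± 0.51 in THP-1 and at 8.51 ± 0.46 and 8.69 ± 0.12 in HL60, so that U937 left the level of THP-1 and reached that of HL60. Differences in HL60 and THP-1 were 0.36 and 0.30.

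Of the lower probe sets in U937, GALT, an enzyme of galactose breakdown, had the largest steady difference, with a wide spread between arrays. Probe set 3167549 read 7.58, 7.15 and 5.09 with DMSO and 4.74, 4.13 and 2.13 with PMA in U937, -2.46 ± 1.08 from the gene. The groups did not overlap, with DMSO array 3 at 5.09 the nearest to PMA array 1 at 4.74, and array 3 was the lowest of its group under both agents. In THP-1 array 3 was likewise low, 4.43 and 5.29 against 8.26 to 8.54 on the other arrays, and in HL60 the arrays ran from 4.30 to 7.84. Between same-numbered arrays the U937 level changed by -2.84, -3.03 and -2.96, and the SE of the difference within these pairs was 0.22. The SE was thus smaller within same-numbered arrays than between groups. The labels do not say whether the numbers pair the arrays, and why the GALT arrays spread was not tested. OTX1, a homeobox transcription factor, was tight by comparison: 5.82, 5.83 and 6.16 and then 3.71, 3.49 and 4.11 at 2485137, or -1.68 ± 0.09, with -0.28 in HL60 and -0.38 in THP-1. ZNF606, a KRAB zinc finger protein, read 5.61, 4.76 and 5.52 and then 2.69, 3.90 and 2.60 at 3872612, or -1.87 ± 0.66, with 0.25 in HL60 and -0.64 in THP-1. FBF1, a protein of the base of cilia, read 6.12, 7.02 and 6.46 and then 4.19, 3.44 and 5.57 at 3771205, or -1.86 ± 0.58, with -1.22 in HL60 and -1.17 in THP-1.

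The largest U937 value in each direction came from a probe set whose arrays did not stay apart, and both were singled out after their values were seen. SCAND2P, a transcribed pseudogene, gave -2.78 at probe set 3605793, with 6.35, 6.83 and 4.42 under DMSO and 1.33, 2.44 and 4.72 under PMA. YBX3, a cold-shock RNA-binding protein, gave 2.04 at 3444278, with 4.37, 2.08 and 1.66 under DMSO and 5.99, 5.92 and 2.86 under PMA, while HL60 and THP-1 read 7.37 to 9.06. In both, array 3 with PMA lay inside the range of the DMSO arrays. Without one of the U937 arrays numbered 2, 7 of the 21 U937 probe sets fell under 1.5.

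In 7 genes more than 1 probe set was chosen. LOC727751, a transcribed pseudogene with 58 usable probe sets, held 4, all higher in THP-1 and nearly equal in value. Probe set 3605008 read 9.29, 9.08 and 9.39 with DMSO and 11.03, 10.96 and 11.38 with PMA, and the means of the other 3 were 9.08 to 9.28 and 10.91 to 11.00. Their differences in THP-1 were 1.74 ± 0.15, 1.69 ± 0.14, 1.65 ± 0.13 and 1.55 ± 0.13, those in HL60 0.40 to 0.53 and those in U937 0.54 to 0.65. The numbers of these probe sets lie far apart, and whether these 4 read 1 transcript or near-identical copies was not tested, so that they may count as 1 observation.

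TSPOAP1, a scaffold that binds RIM and the mitochondrial TSPO protein, held 3 in THP-1 that went opposite ways. Probe set 3764297 read 8.75, 8.97 and 8.30 and then 6.43, 5.89 and 6.14, or -2.23 ± 0.17, and 3764307 read 7.29, 7.41 and 6.75 and then 4.98, 4.88 and 4.56, or -2.05 ± 0.22. Probe set 3764344 read 4.47, 4.90 and 5.43 and then 7.13, 6.06 and 5.45, or 1.58 ± 0.54, and its PMA array 3 was level with DMSO array 3. The 2 lower ones were steady and both PMA means came near those of U937, 6.18 ± 0.52 and 4.33 ± 1.12. In HL60 the lower ones gave -1.19 and -0.53.

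Both SEC31A probe sets, 2775845 and 2775848, were lower in U937. SEC31A forms the outer coat of the COPII vesicles that leave the endoplasmic reticulum. The first read 9.93, 9.77 and 9.65 and then 8.27, 7.60 and 8.16 in U937, and was lower on all PMA arrays than on all DMSO arrays in HL60 (8.63 to 9.48, then 7.86 to 8.57) and in THP-1 (9.33 to 10.20, then 7.90 to 8.93) as well. Differences were -1.80 ± 0.32 in U937, -1.06 in HL60 and -1.11 in THP-1 for the first, and -1.56 ± 0.50, -1.23 and -0.91 for the second. Both thus had negative differences in every line, and their numbers are close together. The SEC31A probe set next in number, 2775844, gave -2.35 in HL60, -0.96 in THP-1 and -1.51 in U937. It passed 1.5 in HL60 and in U937, with the larger value in HL60, and so is no member. COL27A1, a fibrillar collagen, held 2 lower in U937, 3185987 with -2.08 ± 0.34 and 3185985 with -1.67 ± 0.88, the latter with overlapping arrays.

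OTX1 and SCAND2P had probe sets chosen for different lines. In OTX1, 2485138 was lower in HL60 (-1.64) next to the 2485137 already given for U937, and HL60 and U937 read both far below THP-1. In SCAND2P, 3605787 was higher in THP-1 (1.60), with 1.15 in HL60 and 1.44 in U937. ALDOA, the glycolytic aldolase, and its pseudogene ALDOAP2 held 1 each, lower in THP-1 by -1.65 and -1.66, with array values that ran side by side: 8.95, 9.17 and 8.72 then 7.08, 7.17 and 7.53 for ALDOA, and 9.20, 9.27 and 8.70 then 7.15, 7.34 and 7.37 for ALDOAP2. The symbols do not show which of the 2 is read, and both are given as uncertain.

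Members were counted in 22 gene families and in a list of genes with known regulated exons. Ubiquitin enzymes and ligases held most, 7 of 1917 eligible probe sets (0.365% against 0.23% overall), 6 lower and 1 higher, in CUL9, FBXO31, HERC1, RNF167, RNF175, UBE2A and UBE4B. RNF167, an endosomal ligase, was the higher one, with 5.46, 4.14 and 5.58 then 6.34, 6.86 and 5.99 in U937, or 1.77 ± 0.68. Leukocyte surface and cytokine receptors held 5 of 788, or 0.635%, and none of these was steady. With counts this small, a share above or below the overall 0.23% is no result about a family.

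Within the receptors, IL17RC, a subunit of the interleukin-17 receptor, read 6.54, 6.69 and 7.06 and then 8.84, 9.06 and 8.49 at 2610100 in HL60, or 1.56 ± 0.19, with 0.17 and -0.14 in THP-1 and U937. Its HL60 groups were far apart, and without 1 array its difference was 1.44 at the least. SIGLEC10, an inhibitory receptor for sialic acid, was lower in THP-1 by -1.66 ± 0.54 at 3869041, with 6.82, 6.89 and 5.86 then 5.76, 4.41 and 4.60, while HL60 went from 6.65 ± 0.18 to 7.89 ± 0.31. SIGLEC8, a receptor of eosinophils, was higher in THP-1 by 1.64 ± 0.88 at 3869071, with overlapping arrays in usage.

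The list of protein kinases and their scaffolds held 2 of 1622 eligible probe sets (0.123%) and that of protein phosphatases 2 of 754 (0.265%). MAPK8IP1, a scaffold of the JNK kinases, read 8.07, 8.26 and 8.41 and then 5.55, 6.56 and 6.47 at 3329090 in HL60, or -1.64 ± 0.24, with levels of 3.56 ± 1.03 in THP-1 and 6.28 ± 0.33 in U937 under DMSO. Here the line with the highest DMSO level was the one that came down. This did not hold for FCN1 (7.16 in HL60, 10.34 in U937 with DMSO) or APBB2 (5.21 in THP-1, 9.18 in U937). The level filter had a part in all of these. MAPK8IP1 had a mean level of 5.10 without HL60. Without U937, FCN1 was at 4.72 and APBB2 at 4.32, and each of these means lay below 5.17. Each thus needed its bright line to be eligible, and which line was brightest is a description, with no test. ULK3, a kinase of autophagy and Hedgehog signalling, gave -1.503 ± 0.50 in HL60 at 3633139. Among phosphatases, PTPN23, of endosomal sorting, read 8.72, 8.68 and 8.67 and then 7.30, 7.68 and 6.90 at 2621370 in HL60, or -1.53 ± 0.25, against 0.12 and -0.13. PTPRN2, of secretory granules, gave -1.63 ± 0.24 in THP-1 at 3081916.

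Microtubule motors and tubulins held 2 of 730 eligible probe sets (0.274%), actin, myosin and adhesion genes 3 of 1048 (0.286%), and vesicle traffic genes 4 of 1951 (0.205%), of which 2 were those of SEC31A. KIF7, a ciliary kinesin of Hedgehog signalling, read 5.44, 4.94 and 5.21 and then 3.32, 3.80 and 3.97 at 3638490 in HL60, or -1.69 ± 0.19, with -0.61 in THP-1 and -1.45 in U937. MYH6, the other cardiac myosin heavy chain and a neighbour of MYH7 with a like sequence, gave -1.86 ± 0.91 in U937 at 3557434, where PMA array 2 read 1.54 against 4.79 and 5.17. SPTBN5, a spectrin, gave 1.61 ± 0.53 in THP-1 at 3620239. EPN2, an adaptor of clathrin coats, gave -1.93 ± 0.66 in THP-1 at 3713846. TUBB7P, a tubulin pseudogene, gave -1.61 ± 0.44 in HL60 at 2798369. Of the probe sets just given, KIF7 was steady, and the others fell under 1.5 without at least 1 array.

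Chromatin genes held 1 of 1651 eligible probe sets (0.0606%), histone genes 1 of 27 (3.70%), splicing factors 2 of 436 (0.459%), C2H2 zinc finger genes 3 of 1300 (0.231%) and solute carriers 1 of 1343 (0.0745%). KDM6A, which removes the repressive methyl groups of histone H3 lysine 27, read 2.44, 3.37 and 2.44 and then 4.57, 4.34 and 4.44 at 3975518 in THP-1, or 1.59 ± 0.26, against -0.36 and -0.42. All THP-1 arrays lay below 5.17, and HL60 and U937 read 5.91 to 7.83. H2AJ, a histone variant, gave -1.52 ± 0.38 in THP-1 at 3406188, and PRPF40B, a factor of early spliceosomes, 1.79 ± 0.56 in HL60 at 3414152. SLC12A7, a potassium chloride cotransporter, gave -1.57 ± 1.03 in HL60 at 2845704 with overlapping arrays, and ZNF783 -1.66 ± 0.33 in U937 at 3030648. No probe set was chosen in the lists of Rab GTPases, RNA helicases, phosphoinositide enzymes, DNA repair, nuclear pore, respiratory chain and olfactory receptor genes, which held 12 to 510 eligible probe sets each.

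Genes known for regulated exons held 4 of the 139 among 1008 eligible probe sets, or 0.397%, all lower and 3 of them steady. They lay in ATP2B4, MBNL2 and SEC31A. MBNL2 encodes a splicing regulator whose own exons are alternatively spliced. Its probe set 3497644 read 10.63, 10.45 and 10.97 with DMSO and 8.44, 8.83 and 9.56 with PMA in THP-1, 9.90, 10.06 and 10.29 then 9.38, 9.42 and 9.46 in HL60, and 9.84, 9.85 and 10.27 then 9.23, 8.59 and 9.54 in U937. All PMA arrays were below all DMSO arrays in each line. Differences were -1.82 ± 0.35 in THP-1, -0.46 in HL60 and -0.47 in U937, and the next probe set by number gave -0.81 in THP-1. Its gene mean changed by 0.07, -0.21 and -0.40 in THP-1, HL60 and U937.

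ATP2B4 encodes a calcium pump of the plasma membrane with a spliced regulatory tail. Its probe set 2375766 read 6.89, 6.73 and 6.29 and then 3.21, 4.95 and 3.79 in HL60, or -2.18 ± 0.55, against -0.48 in THP-1 and -1.14 in U937. Of the further genes looked up for their known regulated exons, CD44, PTPRC, MBNL1, PTBP1, RBFOX2, FN1 and PKM each had a gene mean change over 0.5 in at least 1 line and so could hold no member.

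Pseudogenes, overlapping genes and neighbouring probe sets were counted among the members. Pseudogenes held 9 of the 139, or 6.47%, in 5 genes, against 0.675% of eligible probe sets, and 4 of the 9 were those of LOC727751. RefSeq (GRCh38.p14, used for names and for which genes overlap) places another gene across 85 of the 129 member genes, or 65.9%, against 2473 of 4561 matched eligible genes, or 54.2%. The probe set nearest in number within the gene, which often reads the same or a nearby exon, moved the same way by at least 0.75 in 13 of the 139, or 9.35%, against 1.38% for eligible probe sets, but lay on the same side in 53.2% against 52.3%. Most members thus had no companion. TOR1AIP1, of the inner nuclear membrane, is one that had: its probe set 2369803 gave 1.67 in HL60, 0.70 in THP-1 and 0.44 in U937, and the next number, 2369802, gave 2.79, 1.44 and 1.71. The latter passed 1.5 in HL60 and in U937 and so is no member. Neighbours of the steady DOCK8, STAU1 and DNAJA4 probe sets gave -1.34, -1.10 and -1.06.

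A measured gene overlapped 22 of the member genes, and in 9 of these its mean changed by over 0.5 in the shifted line, 5 of 10 for HL60, 4 of 11 for THP-1 and 0 of 2 for U937. Among the 717 eligible genes with a measured overlapping gene, the shares were 35.4%, 34.2% and 38.1% in the same order, so that the members' counts were not far from those of eligible genes. In HL60, FMNL3, which overlaps PRPF40B, changed by 3.41, SQSTM1 over MRNIP by 2.04, SGSH over CARD14 by 1.16, ARMC8 over NME9 by -0.58 and TICRR over KIF7 by -2.76, each in the direction of the member except ARMC8. In THP-1, CHD3 over NAA38 changed by -0.96, TCFL5 over COL9A3 by -0.91, IPO4 over REC8 by -0.78 and NSUN7 over APBB2 by 0.58, the first and last against the direction of the member. Their part in the differences was not tested, because positions of the probe sets were not used here.

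Whether the shifted line stood apart before or after PMA was read from its usage minus the mean of the other lines. The distance was wider with PMA in 80 of the 139 and wider with DMSO in 59: 36 and 27 in HL60, 30 and 25 in THP-1, and 14 and 7 in U937. The 2 distances differ by the difference in the shifted line minus the mean difference of the others, which the choice made large. The counts are therefore a description, with no test and no share of eligible probe sets beside them. GNAL belongs to the former, with a distance of 0.02 with DMSO and 1.76 with PMA, as do IL17RC (0.23 and 1.77) and STAG3 at 3015361 (0.39 and -1.08). COL8A2 (2.69 and 0.40), SCN4A (-1.19 and 0.27), TSPOAP1 at 3764297 (1.48 and 0.04) and PTPN23 (1.82 and 0.29) belong to the latter. In these named probe sets a line that differed with DMSO came near the level of the others with PMA. COL8A2 had a mean level of 4.75 without THP-1, and SCN4A 5.14 without HL60 and 5.06 without U937, all below 5.17. The level filter thus had a part in both.

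**Figure D4:**
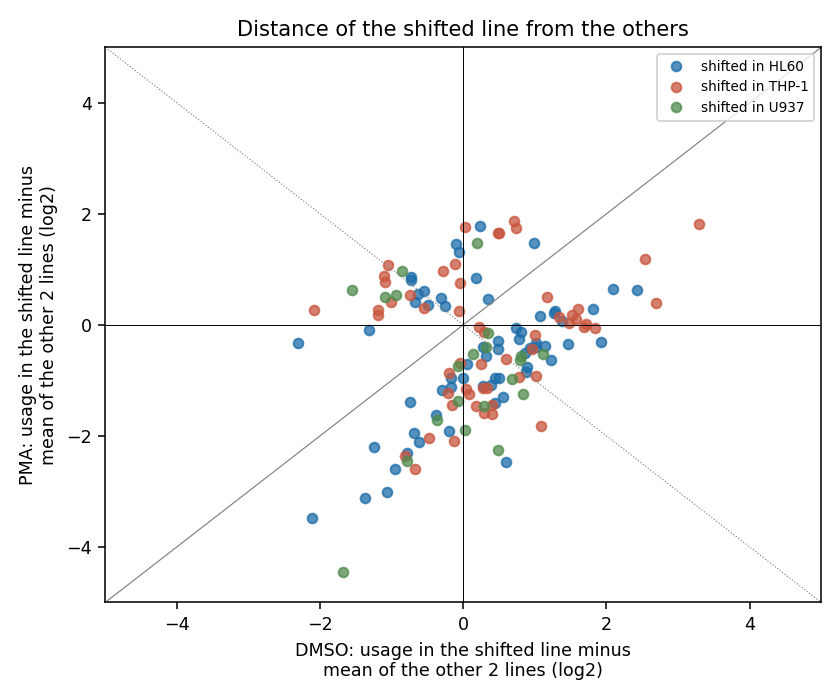
Usage in the shifted line minus the mean of the other lines (log2) with DMSO (horizontal axis) and with PMA (vertical axis) for the 139 probe sets, coloured by shifted line. Grey lines mark equal distances; 80 probe sets stood farther from the other lines with PMA and 59 farther with DMSO.

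The average usage of a line over DMSO and PMA is another measure than the contrast that chose the probe sets. It was tested with limma over 175190 probe sets, and a probe set was called where the adjusted p lay under 0.05 and lines differed by 1 or more. Of the 63 probe sets shifted in HL60, 15 differed between HL60 and the mean of the others (23.8%, against 2.05% of all tested), of the 55 in THP-1 9 (16.4%, against 2.02%), and of the 21 in U937 3 (14.3%, against 2.04%). Among eligible probe sets, from which the members come, the shares were 1.28%, 1.25% and 1.25%, in the order of the lines above. A shift under 1 agent moves the average of its own line too, so that the members' shares are a description. The comparison of the other lines with each other takes its difference from arrays outside the shifted line. THP-1 and U937 differed in 11 of the 63 HL60 probe sets (17.5%, against 2.83%), HL60 and U937 in 7 of the 55 of THP-1 (12.7%, against 2.83%), and HL60 and THP-1 in 5 of the 21 of U937 (23.8%, against 2.86%). Among all eligible probe sets these shares were 1.73%, 1.77% and 1.92%. They were 3.34%, 2.82% and 3.55% among those at or below the members' median level of 6.02, a boundary chosen after the values were seen. In total 27 were called against the mean of the others and 23 between the other lines. The filter on level bears on these counts too, since a probe set that 1 line alone carried above 5.17 had to differ between lines. With 1 of the lines left out, 43 of the 139 had a mean level at or below 5.17, or 30.9%, against 3.81% of eligible probe sets. They made up 11 of the 27 and 12 of the 23, and the shares of members called are therefore no result about the members.

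Among the 11 called between the other lines that stayed above 5.17 without each line, OTX1 at 2485138 was 2.23 ± 0.32 (SE) higher in usage in THP-1 than in U937 (limma, adjusted p = 0.000259). COL27A1 at 3185987 was lower in usage in HL60 than in THP-1 by -1.94 ± 0.18 (limma, adjusted p = 2.8e-06). MBNL2 at 3497644 was 1.10 ± 0.18 higher in usage in HL60 than in U937 (limma, adjusted p = 0.000933). The MBNL2 levels themselves were close, 10.08 in HL60 and 9.99 in U937 with DMSO, and 9.42 and 9.12 with PMA. For both STAG3 probe sets, UBE4B, NADK and SEC31A at 2775845 neither comparison was called. NADK was 0.93 ± 0.16 higher in usage in HL60 than in THP-1 (limma, adjusted p = 0.00101), under the minimum of 1.

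Other distances between lines are a description, with no test, since the level filter or the shift itself had a part in them. FCN1 usage was -4.47 ± 0.24 in THP-1 minus U937, and without U937 its mean level was 4.72. DLX2, a homeobox factor, gave -2.96 ± 0.24 for the same lines and had a mean level of 4.75 without U937. APBB2 was lower in usage in HL60 than in U937 by -1.46 ± 0.19, with a mean level of 4.32 without U937. In RNF175, usage in THP-1 was 2.56 ± 0.20 above the mean of the others, whose level was 4.62. The 4 LOC727751 probe sets, all at a high level, were above the others in usage in THP-1 by 1.07 to 1.29. This average includes their shift with PMA.

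**Figure D5:**
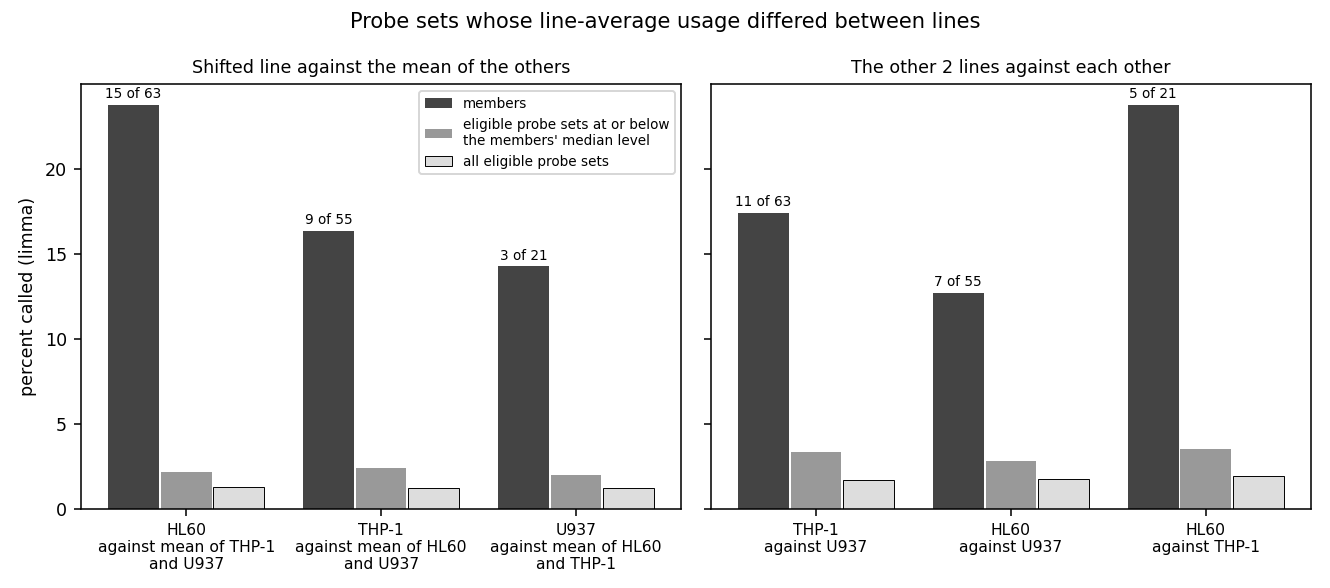
Percent of probe sets whose usage, averaged over DMSO and PMA, differed between lines (limma, by the same call) among members (dark), eligible probe sets at or below the members' median level (grey) and all eligible probe sets (light). Left, the shifted line against the mean of the others; right, the other lines against each other; numbers over the bars are members called of members.

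At the threshold itself the choice divides near-equal values. In HL60, SOX8 (1.504) and ACRBP (-1.5001) were just inside and HADHB (1.49) and DLL4 (-1.499) just outside. In THP-1, LOC727751 (1.55) and SREBF1 (-1.52) were inside and SLC23A1 (1.47) and TMC5 (-1.48) outside, and in U937 ATP2A1 (1.65) and SEC31A (-1.56) were inside and TMEM18 (1.49) and C6orf89 (-1.49) outside. SOX8, a transcription factor of the SOX family, read 7.82, 8.44 and 8.46 and then 10.07, 10.20 and 10.02 in HL60 and was flat in the other lines, whereas SREBF1, of sterol synthesis, had overlapping arrays and ran from -0.81 to -2.40 with 1 array left out. ATP2A1, a calcium pump of muscle, likewise overlapped and ran from 0.91 to 2.38.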

How the data were processed

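The authors deposited exon-level probe-set values on the log2 scale for the 18 arrays, made with Affymetrix Expression Console per the submitters' processing notes. Not given in the sources used here are its version, the background correction, normalization and summary method, and the genome build. The values were used as deposited, with no further normalization. The number of arrays limits the precision.

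Gene names came from the platform annotation. Of 287329 probe sets, 9155 carried several symbols and 16901 none, and these were left out. Of the symbols of 11982 genes with at least 5 usable probe sets, 10415 were current in RefSeq (GRCh38.p14), 1505 were replaced by their current name and 62 were left as they stood. A gene's reference was the mean of its usable probe sets, the probe set itself included. An SE of a difference comes from the spread of usage over the 3 arrays of each group.

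The members, gene lists and tests were chosen with earlier results of these data known. The contrast of PMA against DMSO chose the members and was not tested. Line-average usage was tested in 1 fit of 6 group means with limma 3.58.1 in R 4.3.3 (data.table version 1.17.8), which had 12 residual and 15.5 total degrees of freedom, with two-sided p-values adjusted by the Benjamini-Hochberg method over 175190 probe sets. Other values came from Python 3.11.15 with pandas 2.3.3 and numpy 2.4.6, and figures from matplotlib 3.10.9. The steps were tested on simulated data. Named genes are, per line and direction, the 6 largest differences among steady probe sets, those next to the threshold, genes with several members, up to 3 per family, members with known regulated exons and 8 fixed genes of that kind. Counts by pseudogene, by overlapping gene, by level and by opposite direction were chosen after the values were seen.

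Arrays of the same number in a line deviated together from their group means: correlations between the DMSO and the PMA array of a number ran from 0.186 to 0.662. Between arrays of different numbers they ran from -0.519 to 0.336. THP-1 DMSO array 1 correlated more with PMA array 2 (0.336) than with PMA array 1 (0.250). U937 DMSO array 2 did so with PMA array 1 (0.274 against 0.186). The labels do not say whether the numbers pair the arrays. Alternatives were quantile normalization, centred arrays, other gene references, level filters, thresholds, a replicate block and leaving out arrays.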

Additional observations from a re-analysis of the deposited data

Results flagged for a closer look

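In 7 probe sets the PMA arrays lay beyond the DMSO arrays in usage in opposite directions in 2 lines, against 1.19% of eligible probe sets, and in each the difference between the lines was not tested. FCN1 3229341, of ficolin-1, had a difference of -2.74 in HL60 and 0.80 in THP-1, where all arrays read below 5.17. STAU1 3908820, of a protein that binds double-stranded RNA, had -1.77 in HL60, with 7.77, 7.71 and 7.15 under DMSO and 5.44, 5.71 and 6.05 under PMA, and 0.42 in U937. SIGLEC10 3869041 had -1.66 in THP-1 and 0.84 in HL60. KDM6A 3975518 had 1.59 in THP-1 and -0.42 in U937. CDH26 3891704, of a cadherin, had -1.74 in THP-1 and 1.27 in U937, and THP-1 PMA array 1 read 1.45 against 4.57 and 5.40. DMRT3 3159746, of a DM-domain transcription factor, had -1.60 in THP-1, from 6.67, 6.86 and 6.40 to 5.73, 4.58 and 4.82, and 0.69 in U937. SHANK1 3868635, of a synaptic scaffold, had -1.67 in U937, with DMSO arrays at 5.50 or above and PMA arrays at 3.42, 3.59 and 5.67, and 1.24 in HL60, from 3.11, 4.61 and 4.81 to 5.22, 6.16 and 6.21. Of these, FCN1 and STAU1 kept a difference of 1.5 or more without each array of the line, and the others did not.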

How the results depend on the processing

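The count of 139 probe sets (HL60 63, THP-1 55, U937 21) depends on each threshold. The gene median as reference gave 263 (126, 85 and 52, in the same order), and the mean of the other probe sets of the gene 215, with 48 in U937. A level above the 50th percentile gave 55 (31, 15 and 9) and no filter on level 790 (300, 287 and 203). Gene changes within 0.3 gave 62 (26, 30 and 6), a difference of at least 1 gave 1123 (424, 399 and 300), and one of at least 2 gave 32 (14, 14 and 4). U937 had 44 without both U937 arrays numbered 2. Leaving out 1 array at a time gave 143 to 341 in all, 56 to 233 in HL60, 40 to 270 in THP-1 and 14 to 136 in U937. Quantile normalization gave 161, centred arrays 144, with 125 of the 139 in each, and at least 10 probe sets per gene 115. Of line-average usage, 27 probe sets were called for the shifted line and 23 between the others, and 46 and 36 with no minimum difference. The replicate block gave 30 and 25 as a fixed term and 25 and 21 as a random one, changing neither count by over 1.5 times. Both counts stayed at 26 or 27 and 21 or 23 with quantile normalization, centred arrays, the gene median and without both U937 arrays numbered 2, and at 23 to 28 and 20 to 26 with 1 array left out. Of 694 values of the 64 named probe sets under the alternatives, 6 moved beyond the spread between arrays, in DLEU7, OTX1, SOX8 and ZNF385D with another gene reference, and 0 changed sign. Leaving out 1 of 3 arrays shifts a group mean by less than that spread, so for these settings the outcome was set beforehand. By the threshold of 1.5, 33 of the 139 fell under it without 1 particular array, and for 54 there was more than 1 such array. Why the counts move was not tested.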
